A study of Mus musculus with 9 samples.

Results

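NELF, DSIF, SPT6 with its partner IWS1, and FACT are protein assemblies that act on RNA polymerase II shortly after it leaves the promoter and while it moves through chromatin. Of 10 genes listed for these assemblies, 8 were measured, out of 22180 genes tested: Nelfa, Nelfb, Nelfcd and Nelfe (NELF), Supt5 (DSIF), Supt6 and Iws1, and Supt16 (FACT). A gene was taken as measured where a probe set of the platform carried its symbol alone. The probe set of Supt4a also carries Supt4b, and no probe set used here is listed for Ssrp1, so that the second subunits of DSIF and of FACT were not analysed here.

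DSIF (SPT4 and SPT5) binds the polymerase soon after initiation, and NELF joins it to hold the polymerase in a paused state just downstream of the start site. When the kinase P-TEFb phosphorylates SPT5, NELF and the polymerase, NELF leaves, and SPT5 travels on with the elongating enzyme. SPT6, with IWS1 bound to it, and FACT are histone chaperones that help the polymerase pass nucleosomes and restore them behind it. Promoter-proximal pausing is widespread in mouse embryonic stem cells.

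Expression was measured on 9 Affymetrix arrays, 3 per group, of Nanog-GFP (NG4) reporter ESC (129/Sv) grown on gelatin with LIF. The groups were shPhf5a (a hairpin against Phf5a, a subunit of the SF3b splicing complex), shPaf1 (a hairpin against Paf1, a subunit of the elongation complex named after it) and shControl (a control hairpin). All 3 groups received a pLKO.1-based lentivirus and were selected with 2 μg/mL puromycin for 72 h. The sample titles give 1 hairpin name per group, so that no separate hairpins of a target can be compared. The labels do not say whether replicates were separate cultures, and p-values then cover only the scatter of these samples, which may be technical.

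Values are log2 expression values. Array medians over all probe sets lay between 6.22 and 6.31, and the number of arrays limits the precision. Medians over the 22180 genes, which 1 alternative below subtracts, were 6.66 to 6.70 in shPhf5a, 6.70 to 6.73 in shPaf1 and 6.65 to 6.66 in shControl. Phf5a stood at 34.4%, 55.9% and 39.6% of the control mean in shPhf5a replicates 1, 2 and 3, and Paf1 at 37.7% to 38.9% in shPaf1. Phf5a was at 64.3%, 62.0% and 76.2% of that mean in the shPaf1 arrays, and Paf1 was at 76.5%, 95.7% and 81.8% in the shPhf5a arrays. The shPhf5a replicate 2 array stood apart from its group, with a Pearson correlation over all genes of 0.99365 with replicate 1 and 0.9955 with replicate 3, where replicates 1 and 3 had 0.99665. Of 8 stem cell markers 7 exceeded the level of the median gene (6.70) in every group, and their mean level was 9.86 to 10.1 in shPhf5a, 9.81 to 9.86 in shPaf1 and 10.3 to 10.4 in shControl. Means of 6 trophectoderm markers were 8.03 to 8.36 in shPhf5a, 8.36 to 8.51 in shPaf1 and 6.97 to 7.14 in shControl. Those of 6 primitive endoderm markers were 7.42 to 7.78, 7.39 to 7.44 and 6.84 to 6.97 in the same order of groups, and those of 6 fibroblast markers 5.60 to 5.67, 5.83 to 5.89 and 5.65 to 5.68. Of the 6 trophectoderm markers 5 exceeded the median gene in each knockdown and 3 in shControl. The lowest of them stood at 5.26 in shPhf5a, 5.24 in shPaf1 and 5.29 in shControl. A higher mean thus does not show that every marker rose or that cells of a type were present. The part of such cells in the results below was not tested. In bulk RNA fewer cells of a type and less RNA per cell cannot be told apart.

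Supt5, Supt6 and Nelfa were at 148% to 163% of their control level in shPaf1. Nelfa and, less so, Supt6 were also higher in shPhf5a, where Supt6 has the same value in all 3 arrays. Within NELF the subunit genes changed in opposite directions, with Nelfb lower in shPhf5a and Nelfcd lower in both knockdowns. In shPhf5a 2 of the 8 genes were higher and 2 lower than in shControl at an adjusted p under 0.05 (limma, adjusted over all 22180 genes), where 16.7% of all genes were higher, 20.7% lower and 37.4% passed in all. In shPaf1 3 were higher and 2 lower, against 18.0% and 17.8% of all genes, or 35.8% in all. The arrays of knockdown and control did not overlap for 6 of the 8 in either knockdown, and for 45.8% of all genes in shPhf5a and 48.3% in shPaf1. All 8 members exceeded the level of the median gene, and among the 11090 genes above that level 62.1% passed in shPhf5a and 59.9% in shPaf1, so that these counts are no result about the members as a group. The median change of the 8 was 0.02 in shPhf5a and 0.06 in shPaf1, where the median of all genes was -0.03 and -0.01. Over all genes 3983 were higher and 3947 lower in shPaf1. This split became 3386 and 5291 with the median of each array over these genes subtracted.

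**Figure D1:**
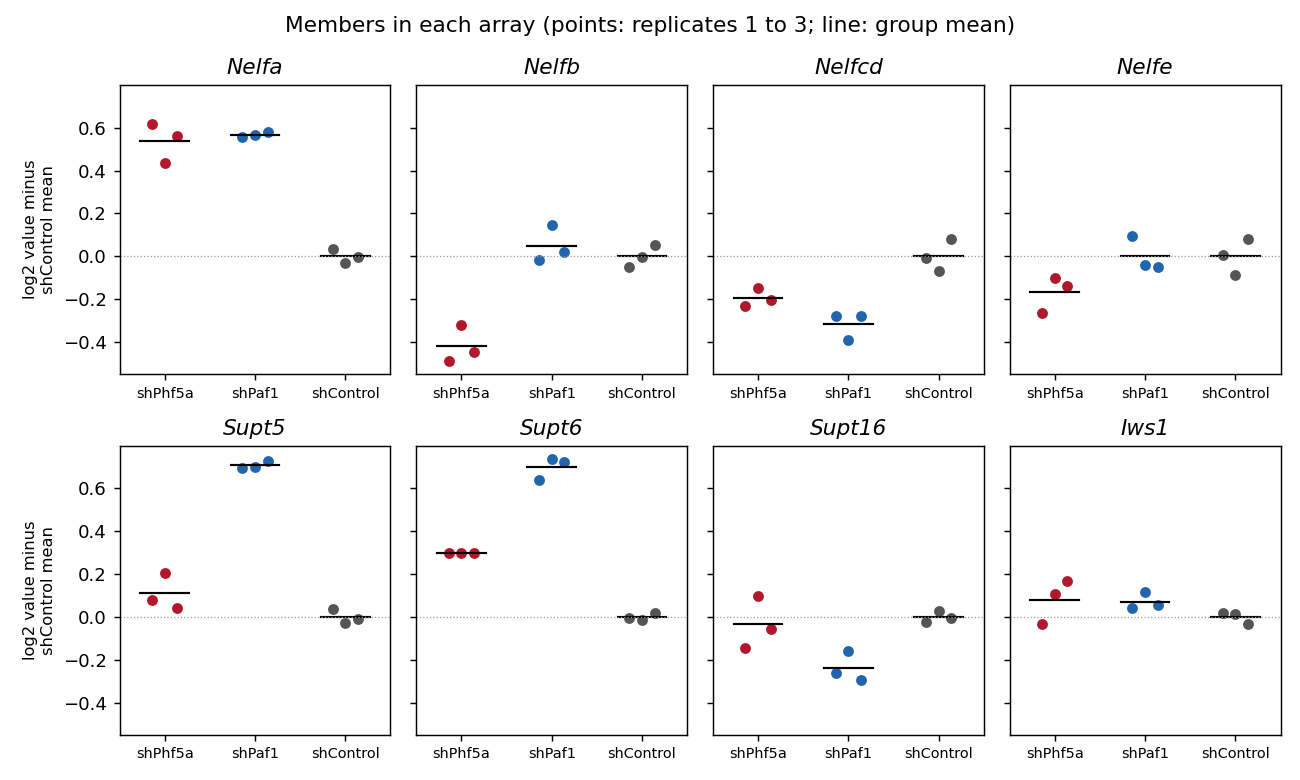
Log2 value of each of the 8 genes in each array, minus the shControl mean of that gene, with replicates 1 to 3 as points from left to right and the group mean as a line. The shPaf1 arrays of Supt5 and Supt6 lie 0.64 to 0.74 above the control mean, those of Nelfa lie above it in both knockdowns, and all 3 of Nelfb lie below it in shPhf5a, where those of shPaf1 overlap with the controls.

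Nelfa encodes a NELF subunit that contacts the polymerase. Its log2 values were 11.64, 11.46 and 11.58 in shPhf5a replicates 1, 2 and 3, 11.58, 11.59 and 11.60 in shPaf1, and 11.05, 10.99 and 11.02 in shControl. Every knockdown array lay above every control array, with shPhf5a replicate 2 the lowest of the 6. Nelfa rose by 0.54 in shPhf5a (SE 0.05, 145% of the control level, adjusted p = 5.65e-05) and by 0.57 in shPaf1 (SE 0.05, 148%, adjusted p = 3.04e-05). The 2 comparisons share the control arrays. The direct difference between the knockdowns was -0.03 (95% interval -0.15 to 0.09, adjusted p = 0.757), and the arrays of the 2 knockdowns overlapped. Without shPhf5a replicate 2 the rise in shPhf5a was 0.59 (adjusted p = 1.21e-05).

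Nelfb encodes the subunit that, with the NELF-C/D and NELF-E subunits, forms the rest of the NELF assembly. Nelfb had log2 values of 8.76, 8.93 and 8.80 in shPhf5a, 9.23, 9.39 and 9.27 in shPaf1, and 9.20, 9.24 and 9.30 in shControl. The shPhf5a arrays lay below all others, and those of shPaf1 and shControl overlapped. Nelfb fell by 0.42 in shPhf5a (SE 0.06, 74.9% of the control level, adjusted p = 0.000594) and was at 0.05 in shPaf1 (95% interval -0.09 to 0.19, adjusted p = 0.626). The difference between the knockdowns passed its own test (-0.47, SE 0.06, adjusted p = 0.000447). Without shPhf5a replicate 2 the change against shControl was -0.47 (adjusted p = 0.000255).

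Nelfcd encodes the NELF-C and NELF-D subunits, which are made from 1 gene. Its log2 values were 9.63, 9.71 and 9.66 in shPhf5a, 9.58, 9.47 and 9.58 in shPaf1, and 9.85, 9.79 and 9.94 in shControl. All arrays of both knockdowns lay below the controls. Nelfcd fell by 0.32 in shPaf1 (SE 0.06, 80.3% of the control level, adjusted p = 0.00151) and by 0.19 (SE 0.06, 87.4%, adjusted p = 0.0218) in shPhf5a. The fall in shPhf5a was lost after quantile normalization (-0.13, adjusted p = 0.0957) and without shControl replicate 1 (adjusted p = 0.0517), shControl replicate 3 (0.0816), shPhf5a replicate 1 (0.0619) or shPhf5a replicate 3 (0.0597). Between the knockdowns Nelfcd differed by 0.12 (95% interval -0.004 to 0.25, adjusted p = 0.147).

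Nelfe encodes the RNA-binding subunit of NELF. Its values ranged over 8.77 to 8.93 in shPhf5a, 8.98 to 9.13 in shPaf1 and 8.95 to 9.12 in shControl, so that the shPhf5a arrays lay just below the rest. The differences did not pass, at -0.17 in shPhf5a (95% interval -0.32 to -0.02, adjusted p = 0.0765), 0.00 in shPaf1 (-0.15 to 0.15, adjusted p = 0.989) and -0.17 between the knockdowns (-0.32 to -0.02, adjusted p = 0.089). That in shPhf5a passed with array medians subtracted (-0.20, adjusted p = 0.0444).

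The NELF subunits thus changed unequally within the same arrays. The log2 difference of Nelfa minus Nelfb, set against its control mean, was 1.10, 0.75 and 1.01 in shPhf5a replicates 1, 2 and 3, 0.57, 0.42 and 0.56 in shPaf1, and 0.08, -0.03 and -0.05 in shControl. None of these groups overlapped, and the shift averaged 0.95 in shPhf5a and 0.52 in shPaf1. Nelfa minus Nelfcd shifted by 0.73 in shPhf5a and 0.88 in shPaf1. Nelfb minus Nelfcd shifted by -0.22 in shPhf5a but by 0.37 in shPaf1, with no overlap with the controls in either. Nelfcd minus Nelfe shifted by -0.32 in shPaf1 and by -0.02 in shPhf5a, where arrays overlapped with the controls. For 3 against 3 arrays the exact two-sided permutation test cannot go below p = 0.1. It reached this value in 17 of 21 comparisons of 7 pairs, and 0.123 after adjustment over the 21.

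**Figure D2:**
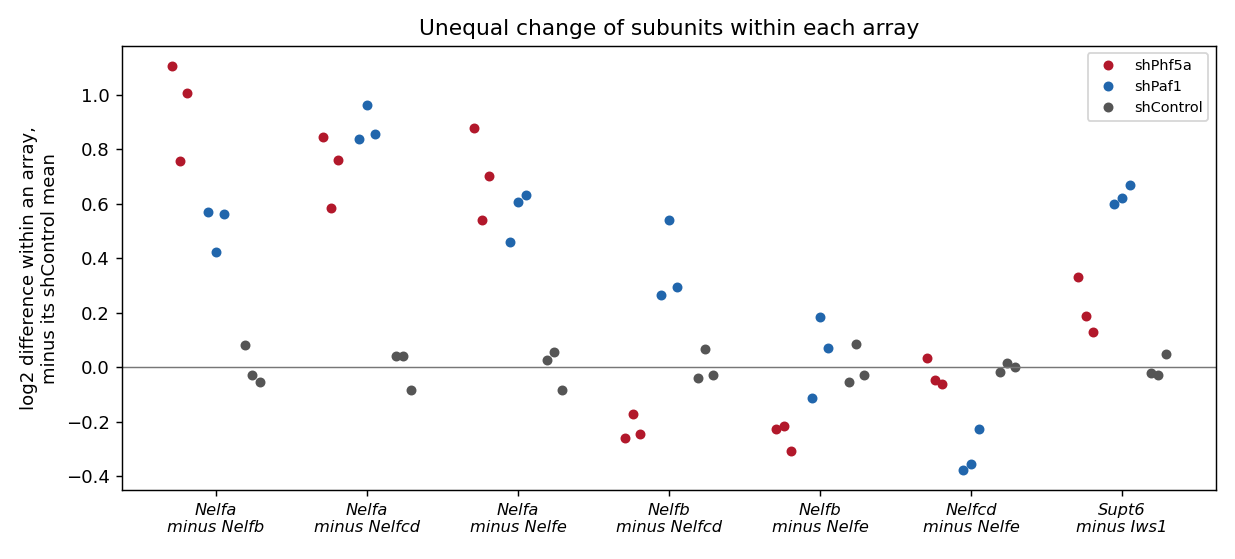
Difference of the log2 values of 2 subunits within an array, minus the shControl mean of that difference, for the 6 pairs of NELF genes and for Supt6 minus Iws1, with a point for each array. Nelfa minus each of the 3 other NELF genes lies above the controls in both knockdowns. Nelfb minus Nelfcd lies below the controls in shPhf5a and above them in shPaf1. Supt6 has the same value in all 3 shPhf5a arrays, so the spread of Supt6 minus Iws1 there is that of Iws1 alone.

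Supt5 encodes the large subunit of DSIF, which clamps onto the polymerase through pausing and elongation. Its log2 values were 10.52, 10.65 and 10.48 in shPhf5a, 11.13, 11.14 and 11.17 in shPaf1, and 10.48, 10.41 and 10.43 in shControl. The shPaf1 arrays lay far above all others, and the shPhf5a arrays lay just above the controls. Supt5 rose by 0.71 in shPaf1 (SE 0.05, 163% of the control level, adjusted p = 7.97e-06), a change that 7.56% of all genes exceeded in size. In shPhf5a it was at 0.11 (95% interval -0.007 to 0.23, adjusted p = 0.136), which passed after quantile normalization (0.20, adjusted p = 0.00753) and was 0.06 without shPhf5a replicate 2. The knockdowns differed by -0.60 (SE 0.05, adjusted p = 3.75e-05), shPhf5a being lower.

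Supt6 encodes SPT6, which binds the elongating polymerase and histones. Its log2 value was 10.91 in all 3 shPhf5a arrays, 11.26, 11.36 and 11.34 in shPaf1, and 10.61, 10.60 and 10.64 in shControl. The 3 groups did not overlap, with shPaf1 highest and shPhf5a between it and the controls. Supt6 rose by 0.70 in shPaf1 (SE 0.04, 163% of the control level, adjusted p = 3.4e-06). The rise in shPhf5a was 0.30 (SE 0.04, 123%, adjusted p = 0.000545), and the direct contrast of shPhf5a with shPaf1 was -0.40 (SE 0.04, adjusted p = 0.000132). The 3 shPhf5a values are identical to every digit deposited and equal the median over the 9 arrays, and so show no spread between replicates. The place of shPhf5a between the other groups rests on this value. Its lack of spread also enters the SE and adjusted p of each contrast above. Of the 22180 genes 162 had 1 value in all 3 arrays of shPhf5a, 272 in shPaf1 and 205 in shControl, and in each of them this value was the median over the 9 arrays. The cause was not tested. In a fit of only the shPaf1 and shControl arrays, where Supt6 has spread in both groups, the rise in shPaf1 had adjusted p = 1.76e-05.

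Iws1 encodes the partner that SPT6 carries. Its values ranged over 9.20 to 9.40 in shPhf5a, 9.28 to 9.35 in shPaf1 and 9.21 to 9.25 in shControl. The shPaf1 arrays lay just above the controls, and the shPhf5a arrays spread over both. Iws1 did not pass in shPhf5a (0.08, 95% interval -0.05 to 0.21, adjusted p = 0.332), in shPaf1 (0.07, -0.06 to 0.20, adjusted p = 0.412) or between the knockdowns (0.01, -0.12 to 0.14, adjusted p = 0.942). Its value in shPhf5a was 0.14 without shPhf5a replicate 1 and 0.038 without replicate 3, and that in shPaf1 was 0.012 with array medians subtracted. Set against Iws1 in the same array, Supt6 shifted by 0.63 in shPaf1 and by 0.22 in shPhf5a, without overlap with the controls. The exact permutation test gave p = 0.1 for each, the smallest that 3 against 3 arrays allow. Because Supt6 has the same value in all 3 shPhf5a arrays, the spread of this difference there is that of Iws1 alone.

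Supt16 encodes the large subunit of FACT. Its log2 values were 11.15, 11.39 and 11.23 in shPhf5a, 11.03, 11.13 and 11.00 in shPaf1, and 11.27, 11.32 and 11.28 in shControl. The shPaf1 arrays were the lowest, and the shPhf5a arrays spread over both sides of the controls, with replicate 2 the highest of all arrays. Supt16 fell by 0.24 in shPaf1 (SE 0.07, 84.8% of the control level, adjusted p = 0.0188). The call was lost after quantile normalization (-0.17, adjusted p = 0.0524) and without shControl replicate 2 (adjusted p = 0.0644), shPaf1 replicate 1 (0.0606) or shPaf1 replicate 3 (0.0714). In shPhf5a Supt16 was at -0.03 (95% interval -0.18 to 0.12, adjusted p = 0.748). The direct difference of 0.20 passed narrowly (SE 0.07, adjusted p = 0.0462) and was lost under 9 of 18 alternatives, among them the fit without shPhf5a replicate 2 (0.14, adjusted p = 0.109).

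**Figure D3:**
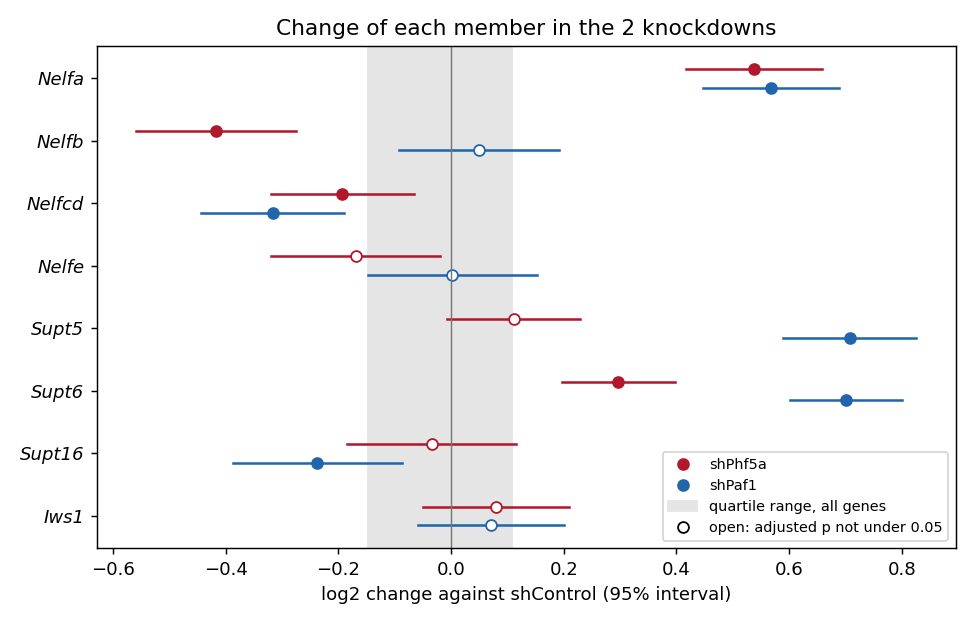
Log2 change of each gene against shControl with its 95% interval, for shPhf5a (upper of each pair) and shPaf1 (lower), filled where the adjusted p was under 0.05. The grey band runs from the lower to the upper quartile of all genes over both knockdowns (-0.15 to 0.11), and Supt5, Supt6 and Nelfa in shPaf1 lie to the right of it at 0.57 to 0.71.

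In the direct comparison of the knockdowns 1 of the 8 genes was higher and 3 were lower in shPhf5a than in shPaf1, where 12.7% of all genes were higher, 16.3% lower and 29.0% passed in all, and 48.1% passed among those above the median level. The arrays of the 2 knockdowns did not overlap for 6 of the 8, and for 37.7% of all genes. The 3 lower genes were Supt5, Supt6 and Nelfb, and the higher one was Supt16. By the size of the change against shControl, the order in shPhf5a was Nelfa, Nelfb, Supt6, Nelfcd, Nelfe, Supt5, Iws1 and Supt16, and in shPaf1 it was Supt5, Supt6, Nelfa, Nelfcd, Supt16, Iws1, Nelfb and Nelfe. Supt5 and Supt6 in shPaf1 lie within 1 SE of each other (0.71 and 0.70).

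The promoter windows of the 4 genes with the clearest changes are shown because 3 of them (Nelfa, Supt5 and Supt6) rose together in shPaf1 and the remaining one (Nelfb) did not pass there and fell in shPhf5a. They hold 250 bases before to 50 after the annotated start, taken from RefSeq on build GRCm38.p6, all 4 on the minus strand and printed 5′ to 3′ along it. Capitals mark matches on either strand to 6 motifs: the TATA box (TATAAA), the CCAAT box named by its letters, the GC box that Sp1 binds (GGGCGG), an ETS core (CGGAAG), the palindromic NRF1 motif and the E-box of Myc and Max (CACGTG). No 2 matches overlap here. The bases are those of the reference build and were not read from the 129/Sv cells measured, where they may differ.
Nelfa, chr5:33936222-33936521: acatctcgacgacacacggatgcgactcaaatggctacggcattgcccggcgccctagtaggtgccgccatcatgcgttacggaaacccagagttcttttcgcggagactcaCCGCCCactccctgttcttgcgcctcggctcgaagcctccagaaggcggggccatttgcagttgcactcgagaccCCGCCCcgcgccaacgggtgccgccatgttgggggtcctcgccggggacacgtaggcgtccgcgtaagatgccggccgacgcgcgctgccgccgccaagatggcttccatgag
Nelfb, chr2:25211440-25211739: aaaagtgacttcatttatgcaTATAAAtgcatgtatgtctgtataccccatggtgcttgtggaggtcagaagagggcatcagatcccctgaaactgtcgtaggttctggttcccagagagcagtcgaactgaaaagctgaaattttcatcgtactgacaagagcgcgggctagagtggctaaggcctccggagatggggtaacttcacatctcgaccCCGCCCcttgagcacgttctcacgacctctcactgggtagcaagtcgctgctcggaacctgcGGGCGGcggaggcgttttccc
Supt5, chr7:28338670-28338969: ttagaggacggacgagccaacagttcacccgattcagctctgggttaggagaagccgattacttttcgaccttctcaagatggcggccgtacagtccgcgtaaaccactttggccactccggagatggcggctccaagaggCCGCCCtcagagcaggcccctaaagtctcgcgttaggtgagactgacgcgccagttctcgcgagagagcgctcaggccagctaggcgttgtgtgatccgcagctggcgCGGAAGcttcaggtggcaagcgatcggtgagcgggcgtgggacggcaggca
Supt6, chr11:78245654-78245953: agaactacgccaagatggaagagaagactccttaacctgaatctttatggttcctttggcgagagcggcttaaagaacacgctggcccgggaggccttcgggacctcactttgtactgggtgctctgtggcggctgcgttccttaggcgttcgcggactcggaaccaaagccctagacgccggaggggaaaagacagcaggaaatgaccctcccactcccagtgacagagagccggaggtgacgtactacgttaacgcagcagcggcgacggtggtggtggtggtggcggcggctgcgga

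Promoters of Nelfa, Supt5 and Supt6 held 36, 28 and 24 CpG dinucleotides, and that of Nelfb held 16, where the median of all 32851 windows was 7 and the upper quartile 20. The GC box, GGGCGG on one strand and thus CCGCCC on the other, occurred at 2 places in Nelfa, 2 in Nelfb, 1 in Supt5 and 0 in Supt6, and in 35.7% of all windows. The letters TATAAA occurred at 1 place in Nelfb and not in the other 3 windows, and in 13.6% of all windows. In Nelfb they lie near the upstream end of the window, far from the start. A match was counted anywhere in a window, so this one does not show a TATA box in use. The ETS core occurred at 1 place in Supt5, and in 16.9% of all windows. The CCAAT box (37.4% of all windows), the NRF1 motif (0.971%) and the E-box (7.15%) had no match in these 4 windows. The window of Supt16 (35 CpG dinucleotides, with 3 matches to the ETS core, 2 to the GC box and 1 to the E-box) is not printed. A match describes the letters of a window and shows no bound factor.

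Genes with the pattern most like those of Supt5 and Supt6, the 2 members with the largest changes, were taken by Pearson correlation over the 9 arrays among 10400 other named genes above the median level. For Supt5 they were Rab5b, a GTPase of endosomes (r = 0.996), Lef1, which mediates Wnt signals on DNA (0.995) and Bcar1, an adaptor of cell adhesion (0.993). For Supt6 they were the adhesion receptor gene Adgrl2 (0.998), the Integrator gene Ints1 (0.996) and the envelope-derived Syna (0.995). These values describe 9 arrays in 3 groups, and 709 and 894 genes exceeded 0.9 with Supt5 and Supt6.

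Other factors of pause release and elongation also changed in both directions. The counts of this group and of the 3 that follow stand beside 16.7% of all genes higher and 20.7% lower in shPhf5a, 18.0% and 17.8% in shPaf1, and 62.1% and 59.9% called among genes above the median level. Of 24 measured genes of that kind (26 listed) 7 were higher and 8 lower in shPhf5a (median -0.09), and 9 were higher and 7 lower in shPaf1 (median 0.02). Mllt1, which encodes the ENL subunit of the super elongation complex, rose by 0.80 in shPaf1 (SE 0.05, adjusted p = 3.76e-06), and its rise in shPhf5a was 0.46 (SE 0.05, adjusted p = 0.000116). Genes of the TFIIS family, which restarts arrested polymerase, fell: Tcea3 by 0.81 in shPhf5a (SE 0.10, adjusted p = 0.000191) and by 0.33 in shPaf1 (SE 0.10, adjusted p = 0.0295), and Tcea2 by 0.49 and 0.62 (SE 0.08 for each, adjusted p = 0.00107 and 0.000261). Elof1, an elongation factor gene, fell by 0.72 in shPhf5a (SE 0.15, adjusted p = 0.00316) and did not pass in shPaf1 (-0.16, adjusted p = 0.467).

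Integrator is a complex with an RNA endonuclease that ends transcription by paused polymerase. Of its 14 genes 2 were higher and 5 lower in shPhf5a (median -0.06), and 2 were higher and 4 lower in shPaf1 (median -0.05), beside the 62.1% and 59.9% called in either direction among genes above the median level. The endonuclease gene Ints11 fell by 1.02 in shPhf5a (SE 0.12, adjusted p = 0.000125) and by 0.34 in shPaf1 (SE 0.12, adjusted p = 0.0468). The gene of the scaffold subunit, Ints1, rose by 0.88 in shPaf1 (SE 0.05, adjusted p = 1.36e-06), and its rise in shPhf5a was 0.38 (SE 0.05, adjusted p = 0.000156). Ints6 and Ints7 fell in shPaf1 by 0.68 (SE 0.05, adjusted p = 4.2e-06) and 0.38 (SE 0.09, adjusted p = 0.00991). They did not pass in shPhf5a, at -0.099 (adjusted p = 0.1215) and -0.12 (adjusted p = 0.3996).

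Of 13 measured genes of other histone chaperones (14 listed) 1 was higher and 7 lower in shPhf5a (median -0.26), and 3 were higher and 7 lower in shPaf1 (median -0.29), where the medians of all genes were -0.03 and -0.01. In total 8 and 10 of the 13 passed, beside the same 62.1% and 59.9%. Chaf1b, a subunit of the CAF-1 complex that loads histones behind the replication fork, fell by 1.02 in shPhf5a (SE 0.12, adjusted p = 0.000108) and by 0.34 in shPaf1 (SE 0.12, adjusted p = 0.0454). Nap1l4, a nucleosome assembly protein gene, fell by 0.72 in shPhf5a (SE 0.07, adjusted p = 5.56e-05). Anp32e, a chaperone of a variant histone, fell by 0.71 there (SE 0.15, adjusted p = 0.0042). Neither passed in shPaf1, Nap1l4 at -0.09 (adjusted p = 0.4145) and Anp32e at -0.42 (adjusted p = 0.0524). Asf1a fell by 0.67 in shPaf1 (SE 0.06, adjusted p = 2.61e-05) and dropped by 0.31 (SE 0.06, adjusted p = 0.00277) in shPhf5a. Of 5 partners of Paf1 in its complex 1 was higher and 2 lower in shPhf5a (median -0.08), and 2 were higher and 1 lower in shPaf1 (median 0.09). Ctr9, a scaffold of that complex, was higher in shPhf5a (1.14, SE 0.08, adjusted p = 1.21e-05) and in shPaf1 (0.74, SE 0.08, adjusted p = 9.5e-05). Rtf1 moved in opposite directions, at -0.65 in shPhf5a (SE 0.06, adjusted p = 3.34e-05) and 0.27 in shPaf1 (SE 0.06, adjusted p = 0.00451). Cdc73 was lower in shPhf5a (-0.25, SE 0.05, adjusted p = 0.00262), and Wdr61 in shPaf1 (-0.37, SE 0.04, adjusted p = 0.0001). Cdc73 did not pass in shPaf1 (0.09, adjusted p = 0.217), nor Wdr61 in shPhf5a (-0.08, adjusted p = 0.1996).

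**Figure D4:**
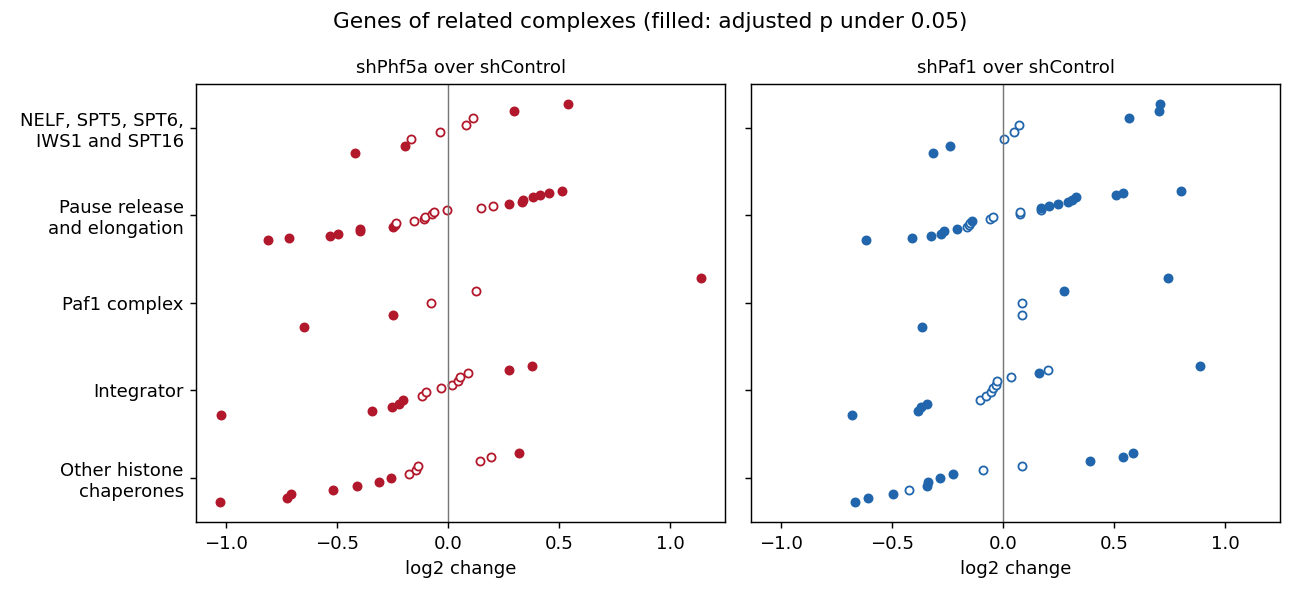
Log2 change against shControl of the 8 genes and of the measured genes of 4 related groups (24 of pause release and elongation, 5 of the Paf1 complex, 14 of Integrator and 13 other histone chaperones), with shPhf5a on the left and shPaf1 on the right. Filled points passed at an adjusted p under 0.05, and each group holds genes on both sides of 0 in both knockdowns.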

How the data were processed

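RNA of 9 samples was measured. Per the labels' protocols, cDNA from 125 ng of total RNA was labelled with whole-transcript kits and hybridized on Affymetrix arrays. The authors deposited log2 values, 1 per probe set and array. The sources used here do not give the software, the normalization or the log base. The log2 scale was inferred from the range (4.35 to 13.7), and with another base fold changes would differ.

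Samples were grouped by their titles. Of 33793 probe sets 23521 had 1 symbol in the platform's annotation, and the one with the highest mean was kept for each of 22180 genes. Probe sets do not separate isoforms. The members, lists and tests were chosen with earlier results of these data known. Named are all measured members, up to 4 called genes per list with the largest change, and 3 genes correlated with each of the 2 members that changed most. Groups were compared by limma 3.58.1 (R 4.3.3), fitting a mean for each group on all 9 arrays, with Benjamini-Hochberg adjustment at 0.05. The fit was tested on simulated data (22180 genes, shPhf5a over shControl). Changes of 0.5 log2 units were called in 84.2% of genes, and 7 of 21980 unchanged genes were called. Far fewer genes changed in the simulation than were called in the data, and no change under 0.5 was simulated. These rates therefore need not hold for the results above.

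Alternatives were array weights, quantile normalization, subtraction of array medians, a robust trended variance, a test of the brighter genes alone, averaged probe sets, every probe set, a fit of the 6 arrays of a comparison, a replicate block, and leaving out each array. No scan dates were used here, and no batch was tested.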

Additional observations from a re-analysis of the deposited data

Results flagged for a closer look

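The change against shControl differed between the knockdowns, by the direct contrast, for 4 of the 8 genes. The change in shPhf5a minus that in shPaf1 was -0.60 for Supt5, -0.47 for Nelfb, -0.40 for Supt6 and 0.20 for Supt16. For Supt5 and Supt6 the shPaf1 rise was the larger one, Nelfb fell in shPhf5a alone among the 2 comparisons with shControl, and the difference of Supt16 had adjusted p = 0.0462 and did not pass under 9 of 18 alternatives.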

How the results depend on the processing

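The numbers of members called stayed within 1.5 times their value under all 18 alternatives. Leaving out each array gave 3 to 4 members in shPhf5a, 4 to 5 in shPaf1 and 3 to 4 between the knockdowns. Calls of Nelfa, Supt6 and Supt5 in shPaf1, of Nelfa, Nelfb and Supt6 in shPhf5a, of Nelfcd in shPaf1, and of Supt5, Supt6 and Nelfb between the knockdowns were kept under all 18. For Supt6, whose 3 shPhf5a values are identical, leaving out a shPhf5a array could not move its changes against shControl or shPaf1, so those settings say nothing about stability. Of 432 member values 401 kept their direction and side of the threshold. Many of these settings could not move a member's log2 change, only its adjusted p. They were the brighter genes alone, averaged probe sets (each member has 1), every probe set and the robust trended variance. The fit of the 6 arrays compared, the replicate block and leaving out an array of the third group were others. A kept direction under these settings says nothing about stability. Of 18 calls lost, 5 were of Nelfcd in shPhf5a and 4 and 9 of Supt16 in shPaf1 and between the knockdowns. In 2 cases a difference newly passed (Supt5 and Nelfe in shPhf5a, given above). Directions that turned belonged to differences that did not pass: Supt16 in shPhf5a after quantile normalization (0.038), Nelfb and Nelfe in shPaf1 with array medians subtracted (-0.0096 and -0.057), and Nelfe in shPaf1 with array weights (-0.0030). Leaving out 1 array gave -0.10 to 0.021 for Supt16 in shPhf5a, -0.045 to 0.042 for Nelfe in shPaf1, -0.070 to 0.020 for Nelfa and -0.034 to 0.066 for Iws1 between the knockdowns, and -0.021 to 0.13 for Nelfb minus Nelfe in shPaf1. The cause was not tested. With the replicate number as a block 4, 5 and 4 members were called, as without it, and 8210, 7858 and 6255 genes. The labels do not say what arrays of the same number share. Deviations from the group means correlated at -0.0578 to 0.106 over the 9 same-numbered pairs and at -0.181 to 0.102 over the others. With 3 arrays per group, such correlations cannot show whether same-numbered arrays shared a culture or a day.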
